A study of Mus musculus with 147 samples.

Results

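Integrins are receptors in the cell membrane made of 1 alpha and 1 beta subunit, each from its own gene, and they bind matrix proteins outside the cell while the tail of the beta subunit recruits talin, kindlin and the integrin-linked kinase complex inside it. The beta 1 subunit, encoded by *Itgb1*, pairs with most alpha subunits and serves as the main receptor chain for collagens, laminins and fibronectin. An alpha subunit reaches the surface only with a beta partner, so the alpha genes a cell transcribes beside *Itgb1* set which matrix proteins its receptors can bind. The integrin subunits described here are 10 genes of the 35438 in the deposited tables, taken by symbol: the beta subunits *Itgb1*, *Itgb3* and *Itgb5* and the alpha subunits *Itga1*, *Itga3*, *Itga5*, *Itga7*, *Itga8*, *Itga9* and *Itgav*.

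The cells were single YFP-positive cells sorted from the kidneys of adult C57BL/6 mice. YFP came from the *Ren1c-YFP* transgene that every mouse carried, so the sort took cells in which the upstream control region of *Ren1c* was active. WT renin cells came from *Ren1c+/+ Ren1c-YFP* mice (51 wells, 4 mice, 1 capture) and Renin-null cells from *Ren1c-/- Ren1c-YFP* mice, which lack renin throughout the body (96 wells, 12 mice, 4 captures, sequenced as the libraries YFP1 and YFP2 of 48 wells each). The study compared them to learn how the renin cell changes when renin is lost, and it chose *Itgb1* for further work on the basis of these same cells, so the *Itgb1* values are no independent evidence of a change. The labels do not tie a cell to its mouse or capture. Each genotype was therefore 1 sample, and no test was made between them. The effects of genotype, capture and library cannot be told apart here, since the WT wells formed a library of their own.

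Each well held full-length cDNA of 1 cell without molecular identifiers, and its values are estimated counts per gene. Counts summed over the wells of a genotype and scaled to a total of 1000000 are given as CPM, and a gene is called present in a well at 10 CPM or more. In a well of 100000 counts or fewer, 1 count reaches this limit, for subunits and markers alike. Wells below 62000 counts numbered 2 in WT and 13 in Renin-null cells. Intervals are exact 95% intervals over wells or counts. They cover at most the counting error of wells or counts, not PCR copies or the spread between mice or captures. Whether 2 of them overlap is given as a description and is no test between genotypes. WT wells held 26401 to 17124854 counts (median 1525972) and Renin-null wells 3628 to 14505243 (median 4107950). The median share of counts from mitochondrially encoded genes was 60.4% for WT and 12.4% for Renin-null wells. The limits of 100000 counts and 1000 genes or more with a mitochondrial share up to 25%, here called the quality limits, were met by 15 WT and 57 Renin-null wells. The labels held against the deleted gene, with *Ren1* between 563 and 314000 CPM in every WT well and at 10 CPM or more in 1 of 96 Renin-null wells. The renin cell marker *Akr1b7* was at 10 CPM or more in all 51 WT wells and in 31 YFP1 and 42 YFP2 wells.

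Some Renin-null wells also held transcripts of other kidney cells. At least 2 markers of podocytes, endothelium, leukocytes or a tubule segment were at 10 CPM or more in 21 of 96 Renin-null wells, among them 9 with podocyte and 10 with proximal tubule markers, and in 3 of 51 WT wells. Over the genotype, the 5 podocyte markers summed to 559 CPM in Renin-null wells and 86.1 CPM in WT wells, where *Podxl* was at 0. *Synpo* had the highest CPM of them in both genotypes (83.2 CPM in WT, 167 CPM in Renin-null wells). The 5 endothelial markers summed to 211 CPM and 30.8 CPM, *Emcn* having the highest CPM, with *Cdh5* and *Tek* at 0 in WT wells. The 5 proximal tubule markers summed to 191 CPM and 17.3 CPM, with *Slc34a1* the highest in both and *Slc5a2* at 0 in WT wells, and the 6 macrophage and leukocyte markers to 5.21 CPM and 1.27 CPM, with *Adgre1* at 0 in both. Loop and distal tubule markers summed to 109 CPM and 0.515 CPM, and collecting duct markers to 30.3 CPM and 10.9 CPM. Smooth muscle markers summed to 11550 CPM in Renin-null and 10460 CPM in WT wells, mesangial markers to 2868 and 2232 CPM, and fibroblast markers to 625 and 171 CPM. The members of a sum did not all lie the same way: of the 4 mesangial markers, which include *Itga8*, *Serpine2* had the highest CPM (1880 in Renin-null and 1191 in WT wells) while *Pdgfrb* was at 83.4 and 503.5 CPM, and of the smooth muscle markers *Myh11* was at 1637 and 2449 CPM. The part of these cells in the results was not tested. Ratios and shares were also taken without the 3 and 21 wells, a choice made after the data were seen, and are given where they moved a call.

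Across genes, 4 pairs of Renin-null wells were near-identical. Their lowest correlation was 0.974 where the pair that followed reached 0.896, and 3 of them crossed the libraries. Whether they are repeat libraries of 1 cell or mislabelled wells was not tested. Another 2 wells, both YFP2 and in none of these pairs, have their sequencing indices exchanged between their labels. Both wells of each pair held the same set of alpha subunits in 4 of 4 pairs: *Itga7*, *Itga9* and *Itgav* in the first, *Itga1*, *Itga9* and *Itgav* in the second, *Itga9* and *Itgav* in the third, and *Itga1*, *Itga3*, *Itga7*, *Itga8*, *Itga9* and *Itgav* in the fourth. *Itgb1* was at 414 and 461 CPM in the first pair, 1423 and 1431 CPM in the second, 993 and 842 CPM in the third and 168 and 269.5 CPM in the fourth. The widest gap among the subunits above 10 CPM was that of *Itgav* in the fourth pair, 98.1 and 476 CPM. Counting each pair once left 92 Renin-null wells.

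*Itgb1* (chr8:128685654-128733200, plus strand, GRCm38) was at 202 CPM over WT and 469 CPM in Renin-null wells, a log2 ratio of 1.21 (95% interval 1.20 to 1.23). Over single WT wells *Itgb1* ran from 0 to 1736 CPM with a median of 2.15, over YFP1 wells from 0 to 2585 CPM with a median of 40.5, and over YFP2 wells from 0 to 2234 CPM with a median of 111. The ranges overlapped, and the genotypes differed in how many wells had the gene. *Itgb1* was present in 15 of 51 WT wells (29.4%, 17.5% to 43.8%) and in 65 of 96 Renin-null wells (67.7%, 57.4% to 76.9%), with 29 of 48 in YFP1 and 36 of 48 in YFP2. Where present, its median level was 136 CPM over WT and 239 CPM in Renin-null wells. A single WT well held 49.4% of all WT *Itgb1* counts, while the highest Renin-null well held 8.07%. Without wells holding markers of other cells the ratio was 1.21 as well and the shares 25.0% and 61.3%.

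The ratio of each gene was read against those of the other genes. Over the 7554 genes whose CPM averaged at least 10 over the 2 genotypes, the median log2 ratio was 0.66, and a gene was called higher or lower at a ratio at least 1 above or below that median (at least 1.66 or at most -0.34). *Itgb1* lay 0.55 above the median gene and was not called. With YFP1 alone it lay 1.10 above, and by the difference of mean log2(CPM + 1) over wells 2.57 above, and under these settings it was called higher, as it was without centring, where its ratio of 1.21 itself passed 1. With every well thinned to 62000 counts, which leaves out 2 WT and 13 Renin-null wells, *Itgb1* had a count in 17 of 49 WT wells (34.7%, 21.7% to 49.6%) and 60 of 83 Renin-null wells (72.3%, 61.4% to 81.6%). Among wells within the quality limits it was present in 9 of 15 WT wells (60%, 32.3% to 83.7%) and 44 of 57 Renin-null wells (77.2%, 64.2% to 87.3%), and these intervals overlap. Their median *Itgb1* level was 85.8 CPM in WT, 203 CPM in YFP1 and 200.3 CPM in YFP2.

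**Figure D1:**
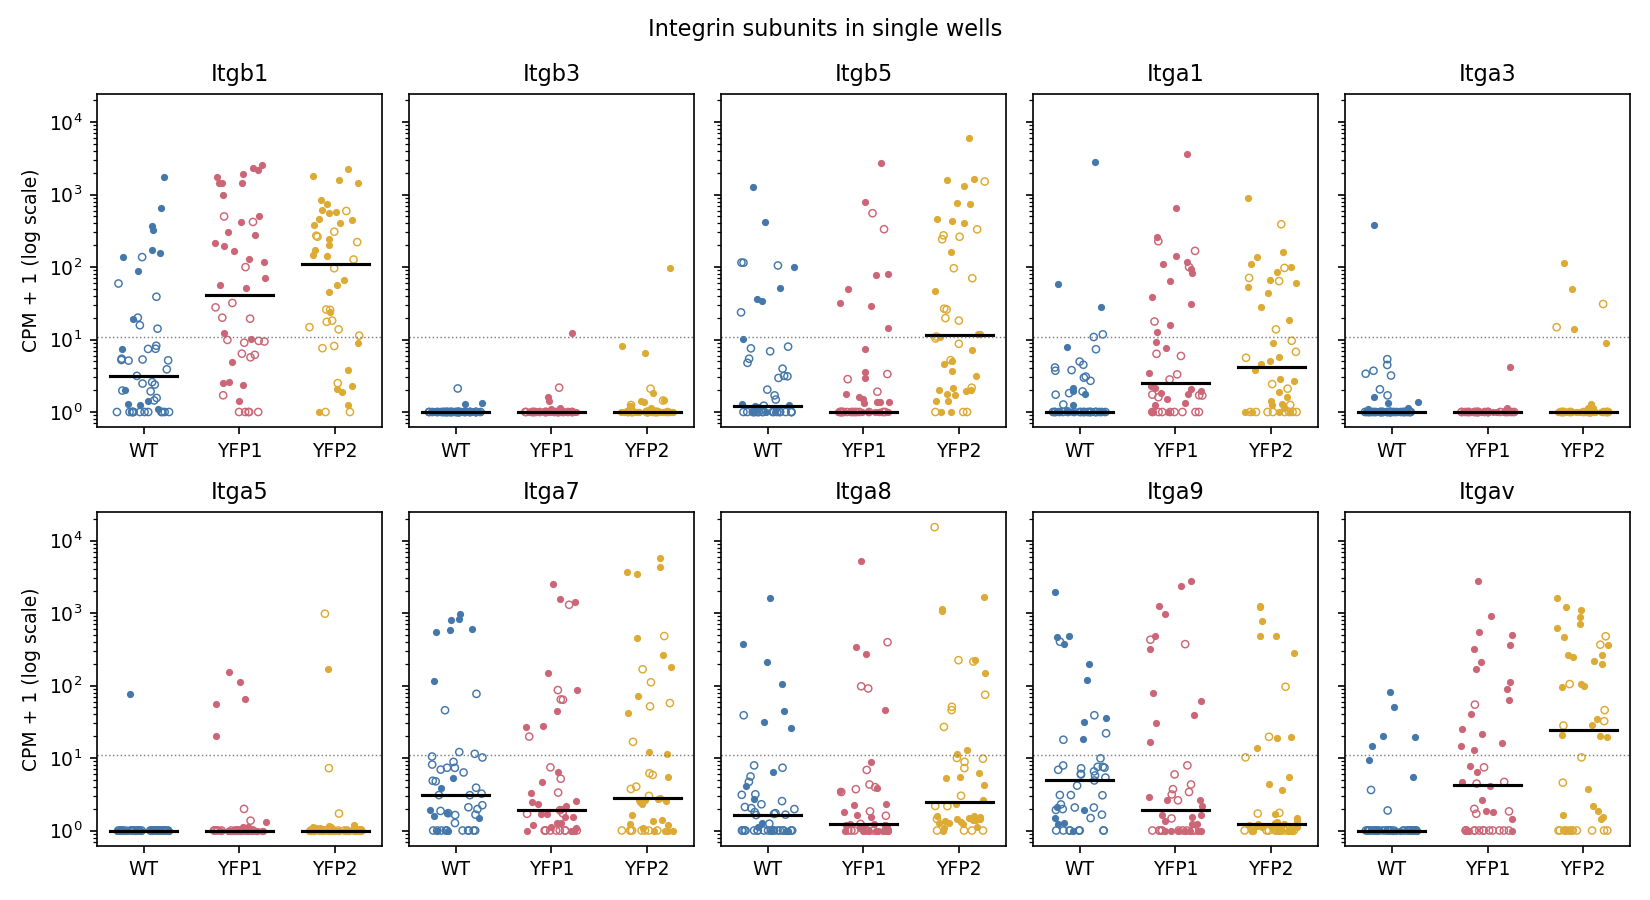
CPM + 1 on a log scale in every well for the 10 integrin subunits, by library. Filled points are wells within the quality limits, open points the other wells, black lines the medians over all wells, and the dotted line 10 CPM. *Itgb1* and *Itgav* have more wells above the line in YFP1 and YFP2 than in WT, while *Itga9* has 13, 13 and 11 wells above it in WT, YFP1 and YFP2.

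Of the 10 subunits, 9 passed the level of 10 CPM and 2 of these were called higher in Renin-null wells (*Itgav* and *Itga5*), where 33.9% of all 7554 genes were. Another 2 were called lower (*Itga1* and *Itga3*), where 30.8% of all genes were. The share of the 9 subunits was 22.2% in each direction. With so few genes, 1 more called subunit would bring either share close to its background, so no difference from the backgrounds is read from them. The counts changed under some other settings. By the difference of mean log2(CPM + 1), 3 of the 9 subunits were called higher where 9.86% of all genes were, by the mean over wells of CPM 3 (33.2%), with YFP2 alone 4 (33.5%) and without the highest wells 4 (37.0%). With YFP2 alone 3 subunits were called lower, where 32.0% of all genes were: *Itga1* (-2.31 from the median gene), *Itga3* (-2.39) and *Itga9* (-1.33). Without centring on the median gene 5 subunits were higher and 1 lower (43.9% and 20.8% of all genes). The median log2 ratio of the 9 subunits was 1.21 against 0.66 over all 7554 genes. The calls of *Itga5*, *Itga1* and *Itga3* each rested on a few wells.

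*Itgav* (chr2:83724397-83806916, plus strand), the alpha subunit of the vitronectin, osteopontin and fibronectin receptors that bind the RGD motif, had the largest ratio among the 9 subunits. It was at 12.9 CPM over WT and 259.6 CPM in Renin-null wells (log2 ratio 4.33, 4.27 to 4.38), with 221 CPM in YFP1 and 292 CPM in YFP2. Over single wells *Itgav* ran from 0 to 80.9 CPM with a median of 0 in WT, from 0 to 2740 CPM with a median of 3.27 in YFP1, and from 0 to 1619 CPM with a median of 23.5 in YFP2. The highest WT well lay below the median of the Renin-null wells that had the gene (168 CPM). It was present in 5 of 51 WT wells (9.80%, 3.26% to 21.4%) and 45 of 96 Renin-null wells (46.9%, 36.6% to 57.3%), and in 5 of 15 against 38 of 57 wells within the quality limits (33.3%, 11.8% to 61.6%, and 66.7%, 52.9% to 78.6%). All 5 WT wells with *Itgav* were thus within these limits. Wells with markers of other cells held 42.6% of the Renin-null *Itgav* counts and 43.4% of the WT counts, and the well with the most *Itgav* was a YFP1 well with 2 loop and distal tubule markers. Without these wells the log2 ratio was 4.53.

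*Itga5* (chr15:103344286-103366763, minus strand), the alpha subunit of the classical fibronectin receptor, was at 3.43 CPM over WT and 18.1 CPM in Renin-null wells (log2 ratio 2.40, 2.29 to 2.52). All 679 WT counts came from 1 well, which also had 2 podocyte markers. In Renin-null cells it was present in 7 of 96 wells, and 1 YFP2 well at 978 CPM held 54.1% of the counts. Among wells within the quality limits *Itga5* lay 0.51 above the median gene, and 1 of 15 WT and 6 of 57 Renin-null wells had it.

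*Itga1* (chr13:114953096-115101964, minus strand), a collagen receptor subunit that smooth muscle and mesangial cells are known to carry, was called lower by summed counts and yet was present in more Renin-null wells. It was at 123 CPM over WT and 65.6 CPM over Renin-null wells (log2 ratio -0.91, -0.93 to -0.88). A single WT well at 2773 CPM held 95.3% of the WT counts, and the WT median was 0 against 1.54 CPM in YFP1 and 3.17 CPM in YFP2. *Itga1* was present in 4 of 51 WT wells (7.84%, 2.18% to 18.9%) and 34 of 96 Renin-null wells (35.4%, 25.9% to 45.8%), 17 in each library. Without the highest well of each genotype it lay 1.36 above the median gene, where the sum over all wells put it 1.57 below. Among wells within the quality limits 3 of 15 WT and 25 of 57 Renin-null wells had it (20.0%, 4.33% to 48.1%, and 43.9%, 30.7% to 57.6%).

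*Itga3* (chr11:95044474-95076801, minus strand), a laminin receptor subunit known from podocytes and epithelia, was at 23.2 CPM over WT and 3.58 CPM in Renin-null wells (log2 ratio -2.69, -2.78 to -2.61). A single WT well at 377 CPM held 99.3% of the WT counts. It was present in 1 WT well and in 5 Renin-null wells, all of YFP2. The log2 ratio was -8.58 with YFP1 alone and -1.83 with YFP2 alone. Renin-null wells with markers of other cells held 99.0% of the Renin-null *Itga3* counts, with 82% in the 9 wells with podocyte markers, of which 1 also had 5 endothelial markers. Without the highest well of each genotype *Itga3* lay 1.54 above the median gene.

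*Itgb5* (chr16:33829665-33949338, plus strand), a partner of *Itgav* in the vitronectin receptor, was at 116 CPM over WT and 338 CPM in Renin-null wells, a log2 ratio of 1.54 (1.52 to 1.56). The libraries differed, with a log2 ratio of 0.25 for YFP1 and 2.12 for YFP2. A single well held 83.6% of the YFP1 counts and another 66.8% of the WT counts, and without them the levels were 23.6 CPM in YFP1 (138 with it) and 41.1 CPM in WT. *Itgb5* lay 0.07 below the median gene with YFP1 alone and 1.55 above it with YFP2 alone. It ran from 0 to 1281 CPM in WT wells (median 0.229), from 0 to 2684 CPM in YFP1 (median 0) and from 0 to 5970 CPM in YFP2 (median 10.5). It was present in 10 of 51 WT wells, 10 of 48 YFP1 wells and 24 of 48 YFP2 wells. Within the quality limits 6 of 15 WT (40.0%, 16.3% to 67.7%) and 21 of 57 Renin-null wells (36.8%, 24.4% to 50.7%) had *Itgb5*. *Itgb3* (chr11:104608000-104670476, plus strand), the other classical partner of *Itgav* and the beta chain of the platelet fibrinogen receptor, was near absent. It held 11 counts in WT wells and 693 in Renin-null wells, 85% of them in 1 well, and was present in 0 of 51 WT wells (interval up to 6.98%) and 2 of 96 Renin-null wells.

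*Itga7*, *Itga8* and *Itga9* were not called. *Itga7* (chr10:128933818-128958282, plus strand), the laminin receptor subunit of muscle, was at 246 CPM over WT and 406 CPM over Renin-null wells, with 204 CPM in YFP1 and 574 CPM in YFP2 and a log2 ratio of 0.72 (0.71 to 0.73). *Itga8* (chr2:12106632-12301922, minus strand), the nephronectin receptor subunit of mesangial and smooth muscle cells, was at 122 CPM and 352 CPM (log2 ratio 1.53, 1.51 to 1.55), and 1 YFP2 well at 15300 CPM held 43.5% of the Renin-null counts while 1 WT well held 70.1% of the WT counts. Without wells holding markers of other cells *Itga8* lay 1.10 above the median gene and was called higher, as it was with YFP2 alone (1.27), by the mean over wells of CPM (1.22) and by SCTransform (1.16), whereas within the quality limits it lay 0.11 below (-0.11), with a log2 ratio of 0.43. *Itga9* (chr9:118606690-118901003, plus strand), a receptor subunit for tenascin and osteopontin, was at 219 CPM and 211 CPM (log2 ratio -0.05, -0.07 to -0.03), with 309 CPM in YFP1 and 129 CPM in YFP2, and was called lower with YFP2 alone (-1.33 from the median gene) and without the highest wells (-1.01). Over all wells the shares lay close together, 11 of 51 and 30 of 96 for *Itga7*, 8 of 51 and 21 of 96 for *Itga8*, and 13 of 51 and 24 of 96 for *Itga9*. In thinned wells, WT first, the shares were 26.5% and 33.7% for *Itga7* and 14.3% (5.94% to 27.2%) and 30.1% (20.5% to 41.2%) for *Itga8*. For *Itga9* they were 40.8% (27.0% to 55.8%) and 22.9% (14.4% to 33.4%). Among wells within the quality limits the WT shares were the higher ones, 46.7% against 33.3% for *Itga7*, 46.7% (21.3% to 73.4%) against 19.3% (10.0% to 31.9%) for *Itga8*, and 60% (32.3% to 83.7%) against 35.1% (22.9% to 48.9%) for *Itga9*. Their intervals overlap, and the differences were not tested.

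**Figure D2:**
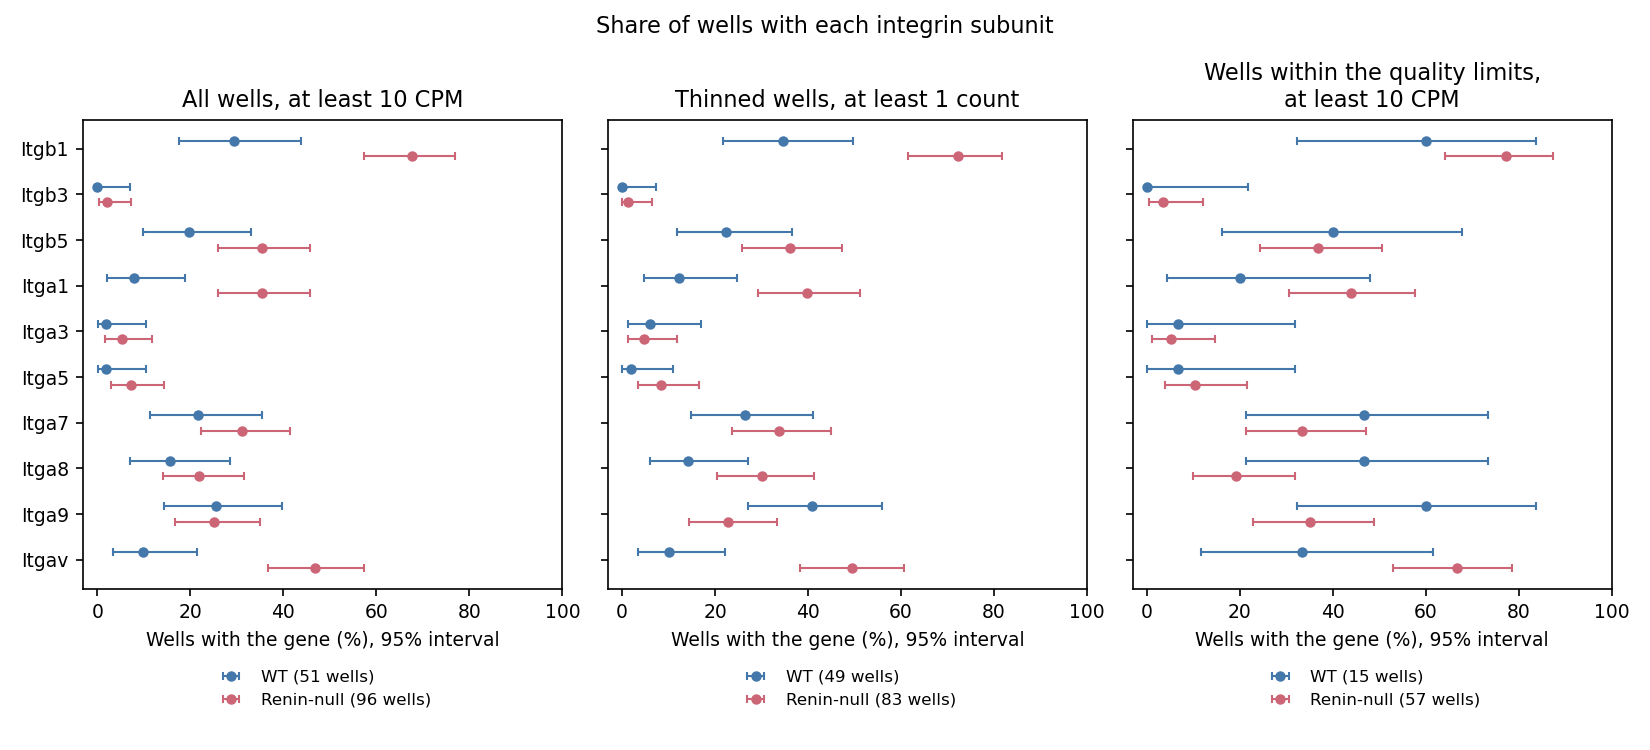
Share of wells with each integrin subunit, in percent with exact 95% intervals, in WT (blue) and Renin-null (red) wells, for all wells at 10 CPM or more, for wells thinned to 62000 counts at 1 count or more, and for wells within the quality limits at 10 CPM or more. The widest gaps in the first panel are those of *Itgb1* (29.4% and 67.7%), *Itgav* (9.80% and 46.9%) and *Itga1* (7.84% and 35.4%), and the intervals are wider in the third panel, where 15 WT wells remain.

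Per kilobase of the longest annotated transcript, which allows levels of different genes to be compared, the WT order began with *Itga7* (61.3 CPM per kb), *Itgb1* (53), *Itgb5* (35.4), *Itga9* (31.2) and *Itga8* (21.0), followed by *Itga1* (11.2), *Itga3* (4.77), *Itgav* (1.83), *Itga5* (0.777) and *Itgb3* (0.00961). The Renin-null order was *Itgb1* (123 CPM per kb), *Itgb5* (103), *Itga7* (101), *Itga8* (60.6), *Itgav* (36.8), *Itga9* (30.1), *Itga1* (5.99), *Itga5* (4.11), *Itga3* (0.737) and *Itgb3* (0.300). *Itgav* thus ranked 8 of 10 in WT and 5 in the Renin-null order (6 by mean transcript length). Its WT rank rests on single wells of *Itga1* and *Itga3*: without the highest well of each gene *Itgav* (1.20 CPM per kb) ranked 6 in WT, above *Itga1* (0.555) and *Itga3* (0.0377), and again 5 in the Renin-null order. By the mean over wells within the quality limits *Itgav* ranked 8 in WT and, at 36.6 CPM per kb, 4 in Renin-null wells, above *Itga9* (32.2) and *Itga8* (31.0), whose summed level rests on the well that held 43.5% of its counts. The neighbours *Itgb1*, *Itgb5* and *Itga7* did not differ beyond the spread between the libraries, which was 108 to 141 CPM per kb for *Itgb1*, 41.9 to 154 for *Itgb5* and 50.7 to 143 for *Itga7*, nor did *Itga7* and *Itga8* (43.5 to 74.9). The same held for *Itgav* (31.3 to 41.4) and *Itga9* (18.4 to 44.1), for *Itga1* (3.36 to 9.13) and *Itga5* (2.34 to 5.58), and for *Itga3* (0.0125 to 1.34) and *Itgb3* (0.0286 to 0.527). With the mean transcript length the WT order began with *Itga9*, *Itgb1*, *Itga7* and *Itgb5*, and *Itgav* had rank 8 by this length too. WT cells have no second library from which to take a spread.

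The question of which receptors a cell could build was followed well by well. In the 15 WT wells with *Itgb1*, no alpha subunit of the 7 was present in over 50% of the wells: *Itga7* and *Itga9* were present in 6 (40.0%, 16.3% to 67.7%), *Itga8* in 4, *Itgav* in 3, and *Itga1*, *Itga3* and *Itga5* in 1 each. Within the quality limits *Itga7* and *Itga9* were each present in 5 of 9 such WT wells (55.6%, 21.2% to 86.3%), as in wells of at least 1000000 counts. In the 65 Renin-null wells with *Itgb1*, *Itgav* was present in 39 (60%, 47.1% to 72%) and was the only alpha subunit in over 50% of them. *Itga1* followed with 27 (41.5%, 29.4% to 54.4%), *Itga7* with 20 (30.8%), *Itga9* with 18 (27.7%) and *Itga8* with 17 (26.2%), and *Itga5* and *Itga3* were present in 6 and 5. At 1 count *Itgav* did not come first: *Itga8* was found in 73 of 88 such wells, *Itga1* in 70, *Itga7* in 69 and *Itgav* in 66. The laminin receptor subunits *Itga3* or *Itga7* were found in 6 of 15 WT and 22 of 65 Renin-null wells with *Itgb1*, the RGD-binding subunits *Itga5*, *Itga8* or *Itgav* in 5 and 49, and the collagen receptor subunit *Itga1* in 1 and 27.

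A well with *Itgb1* had a median of 1 of the 7 alpha subunits if WT and 2 if Renin-null. This difference depended on the setting. Both medians were 2 within the quality limits and in wells of at least 1000000 counts. At 100 CPM the order turned, with 1.5 in WT and 1 in Renin-null wells. In all wells at 10 CPM the numbers were as follows. None of the 7 was present in 7 of 15 WT wells and 5 of 65 Renin-null wells, 1 in 1 and 24, 2 in 3 and 13, 3 in 2 and 16, and 4 or more in 2 and 7. The sets were varied. The 8 WT wells with any alpha subunit held 8 different sets, of which *Itga7* with *Itga9*, alone or with others, occurred in 5. Among Renin-null wells *Itgav* alone was the most frequent set (10 wells), followed by *Itga1* alone (6 wells), and the others had 3 wells or fewer. *Itga1* and *Itgav* occurred together with *Itgb1* in 17 of 65 Renin-null wells and in none of the 15 WT wells. With each near-identical pair counted once these were 15 of 61 Renin-null wells. Taken singly, *Itga1* was present in 27 and *Itgav* in 39 of the 65, and in 1 and 3 of the 15 WT wells. Whether the 2 occurred together more often than these single shares give was not tested.

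Wells with *Itgb1* were also deeper and of better quality than wells without it. The shares of *Itga1*, *Itga7*, *Itga8*, *Itga9* and *Itgav* were therefore set beside those of wells without *Itgb1*. The median depth with and without *Itgb1* was 6493360 and 1414290 counts in WT and 5641820 and 1670710 in Renin-null wells, and the median mitochondrial share was 8.90% and 64.6% in WT and 7.19% and 38.1% in Renin-null cells. *Itgav* was present in 6 of 31 Renin-null wells without *Itgb1* (19.4%, 7.45% to 37.5%), an interval apart from that of wells with *Itgb1*. For *Itga1* the share without *Itgb1* was 22.6% (9.59% to 41.1%), for *Itga9* 19.4%, for *Itga8* 12.9% and for *Itga7* 32.3%, and each of these intervals overlaps that of wells with *Itgb1*. This depends on the limit: at 10 counts, where a deeper well passes more easily, the intervals with and without *Itgb1* were apart for *Itgb5*, *Itga1*, *Itga7*, *Itga8*, *Itga9* and *Itgav*, with *Itga1* in 34 of 62 and 4 of 34 wells and *Itgav* in 42 of 62 and 6 of 34. Within the quality limits, where the depths were 6758060 and 5833270 counts, *Itgav* was present in 32 of 44 Renin-null wells with *Itgb1* (72.7%, 57.2% to 85%) and 6 of 13 without it (46.2%, 19.2% to 74.9%), and in thinned wells in 34 of 60 (56.7%, 43.2% to 69.4%) and 7 of 23 (30.4%, 13.2% to 52.9%). In both settings the share stayed higher in wells with *Itgb1* and the intervals overlap. The part of depth in this difference was not tested. WT wells within the quality limits numbered 9 with and 6 without *Itgb1*, and *Itgav* was present in 33.3% of both. Over all WT wells its shares with and without *Itgb1* were 20.0% and 5.56%, and in thinned wells 23.5% and 3.12%. For *Itga7* the shares over all WT wells were 40.0% and 13.9%, for *Itga9* 40.0% and 19.4%, and for *Itga8* 26.7% and 11.1%. *Itga1* lay the other way, 6.67% and 8.33%. All these intervals with and without *Itgb1* overlap.

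**Figure D3:**
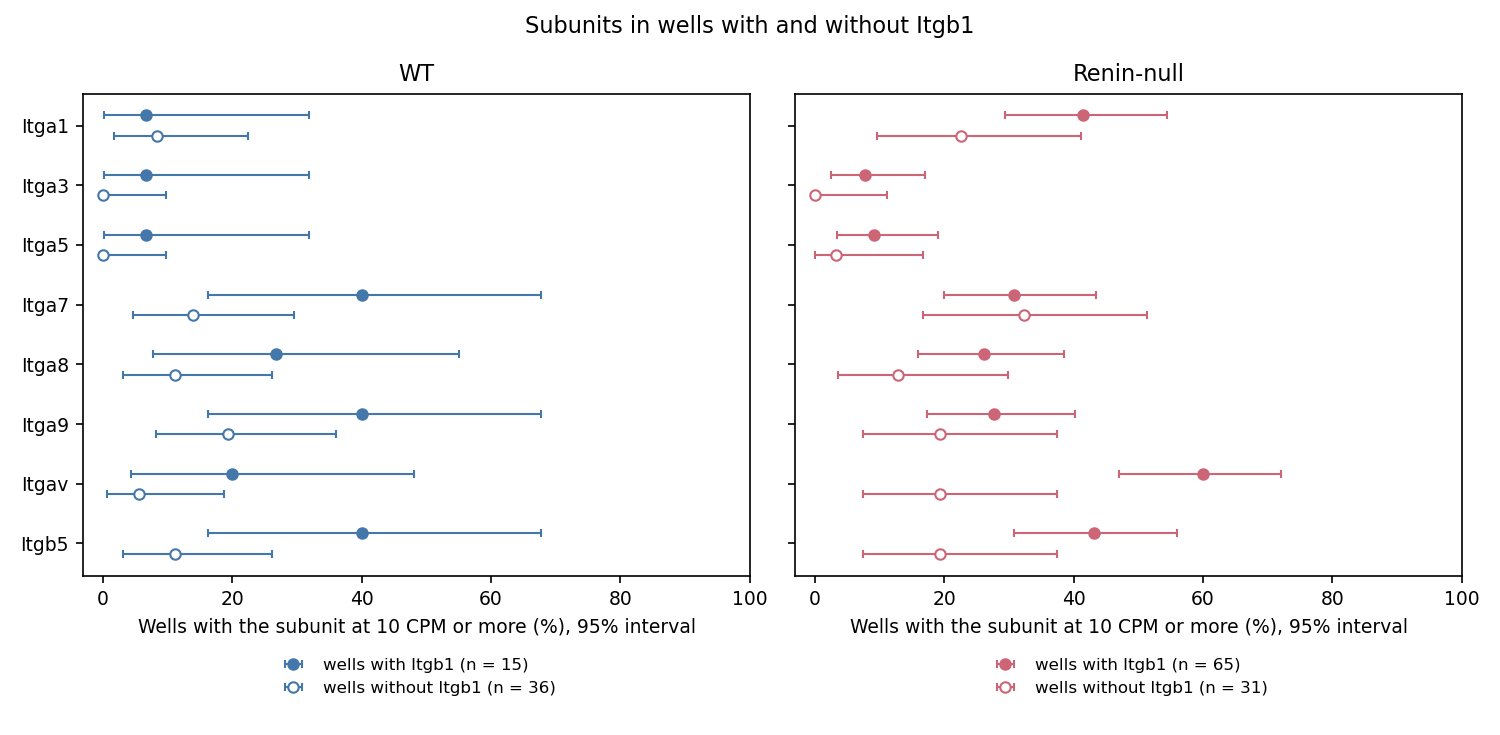
Share of wells with each alpha subunit and *Itgb5* at 10 CPM or more, in percent with exact 95% intervals, in wells with *Itgb1* (filled) and without it (open) of each genotype. The widest gap in Renin-null wells is that of *Itgav*, 60% with and 19.4% without *Itgb1*.

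*Itgav* can pair with several beta subunits, and *Itgb1* was the one found with it most often in Renin-null cells. Over all 96 Renin-null wells *Itgb1* was also the most often present of the 3 listed beta subunits, in 65 wells, with *Itgb5* in 34 and *Itgb3* in 2. In the 51 WT wells *Itgb1* was present in 15 and *Itgb5* in 10. A preference of *Itgav* for a partner was not tested. Of the 45 Renin-null wells with *Itgav*, 19 held both *Itgb1* and *Itgb5*, 20 *Itgb1* without *Itgb5*, 2 *Itgb5* without *Itgb1* and 4 neither of them. *Itgb3* was present in 2 of these wells, *Itgb8* in 3 and *Itgb6* in 2. All 5 WT wells with *Itgav* held *Itgb5*, and 3 of them also *Itgb1*.

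**Figure D4:**
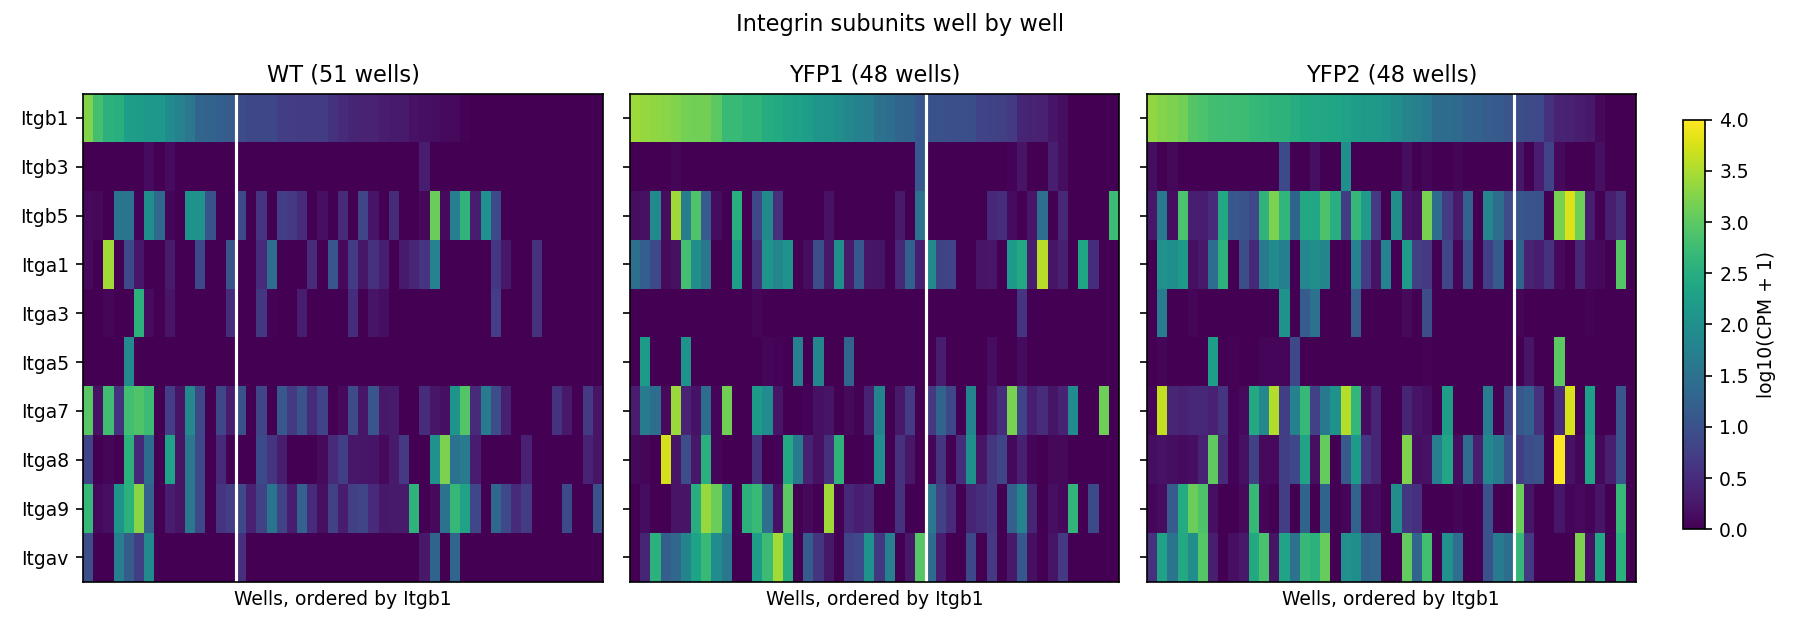
log10(CPM + 1) of the 10 integrin subunits (rows) in every well (columns) of the WT, YFP1 and YFP2 libraries, with wells ordered by *Itgb1*. Wells left of the white line have *Itgb1* at 10 CPM or more, 15 of 51, 29 of 48 and 36 of 48, and the alpha subunits below differ from well to well.

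Low counts in WT wells carry a further limit. WT wells with a sequencing index in common with the well richest in a gene had counts of it more often than the others for 7 of the 10 subunits. *Itga3* had a count in 11 of 15 wells sharing an index with its richest WT well and in 1 of 35 others, *Itga1* in 13 of 14 and 10 of 36, *Itgb5* in 14 of 15 and 14 of 35, and *Itgb1* in 14 of 14 and 23 of 36. The gap was smaller for *Itgav* (2 of 6 and 6 of 44), *Itga9* (14 of 15 and 27 of 35) and *Itga7* (11 of 14 and 27 of 36). *Itga8* (7 of 14 and 22 of 36) and *Itgb3* (0 of 14 and 2 of 36) lay the other way, and *Itga5* had no count in any of these wells. At 10 CPM or more these were 0 and 0 wells for *Itga3*, 1 and 2 for *Itga1*, 5 and 4 for *Itgb5*, and 6 and 8 for *Itgb1*. For *Itga1* the shares lay close together in the other libraries, 78.6% of wells sharing an index and 75.8% of the others in YFP1 and 78.6% and 72.7% in YFP2, whereas *Itga3* had a count in 5 of 14 and 4 of 33 YFP2 wells and *Itgb3* in 6 of 14 and 6 of 33. Whether reads passed between wells was not tested.

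Bases upstream of the gene start are shown for *Itgb1* and *Itgav*, the beta subunit and the alpha subunit most often found beside it in Renin-null wells at 10 CPM or more. They are from RefSeq promoters on GRCm38.p6, 250 bases read 5′ to 3′ on the plus strand, chr8:128685404-128685653 and chr2:83724147-83724396. Capitals mark the GC box GGGCGG, searched on both strands, which binds Sp1 family factors.
Itgb1: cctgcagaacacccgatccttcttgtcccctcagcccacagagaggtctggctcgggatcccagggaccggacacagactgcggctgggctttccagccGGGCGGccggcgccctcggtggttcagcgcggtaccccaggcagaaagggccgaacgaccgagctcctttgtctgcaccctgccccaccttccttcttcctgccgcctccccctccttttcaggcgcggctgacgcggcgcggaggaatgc
Itgav: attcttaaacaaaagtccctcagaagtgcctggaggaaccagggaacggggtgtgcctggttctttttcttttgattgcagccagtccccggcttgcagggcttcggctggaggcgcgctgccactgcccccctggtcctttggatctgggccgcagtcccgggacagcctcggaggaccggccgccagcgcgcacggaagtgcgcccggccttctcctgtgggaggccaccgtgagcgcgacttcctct
Both are rich in G and C, 68% for *Itgb1* and 64.4% for *Itgav*, against a median of 52.4% over 32851 promoters. *Itgb1* has 1 GC box and *Itgav* none, where 32.7% of all promoters hold at least 1. Of the 10 subunits, 8 had a promoter in the table (9 promoters, *Itga3* having 2), and *Itga7* and *Itgb3* had none. The *Itga9* promoter (chr9:118711442-118711691) lies inside the gene, away from the gene start given above. The same holds for 1 promoter of *Itga3* (chr11:95069199-95069448). A TATA box TATAAA (12.4% of all promoters), the cyclic AMP response element TGACGTCA (1.55%) and the CArG box of smooth muscle genes (1.47%), also searched on both strands, were found in none of the 9, and CCAAT (33.8%) in 1 promoter of *Itga3*. These letters are a description of the sequence, not of factor binding.

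Outside the 10 subunits, 17 other integrin genes were examined and 4 passed 10 CPM. *Itga4*, the alpha subunit that pairs with *Itgb1* in the receptor for Vcam1 and fibronectin, had the highest CPM of them and lay in the opposite direction to *Itgav*. It was at 409.5 CPM over WT and 134 CPM in Renin-null wells (log2 ratio -1.61, -1.63 to -1.60), called lower, with 259 CPM in YFP1 and 29.8 CPM in YFP2. With YFP2 alone the log2 ratio was -3.78. With YFP1 alone it was -0.66, less than 1 below the median gene of that setting (0.32), and *Itga4* was not called. A single YFP1 well at 6325 CPM held 68.5% of the Renin-null counts and 1 WT well 42.2% of the WT counts, and without them the levels were 42.8 CPM and 247 CPM (log2 ratio -2.53). *Itga4* was present in 36 of 51 WT wells (70.6%, 56.2% to 82.5%), more than any of the 7 listed alpha subunits, and in 28 of 96 Renin-null wells (29.2%, 20.3% to 39.3%), and in 10 of 15 and 19 of 57 wells within the quality limits. In WT wells with *Itgb1* it was present in 9 of 15, of which 5 held none of the 7 listed alpha subunits, and in WT wells without *Itgb1* in 27 of 36 (75%). In Renin-null cells it was present in 21 of 65 wells with *Itgb1* (32.3%) and 7 of 31 without it (22.6%). The other 3 were called higher, 3 of 4 genes beside 33.9% of all genes (and 1 of 4 lower beside 30.8%), and rested on few wells: *Itga2b*, the platelet alpha subunit, with 99.6% of its Renin-null counts in 1 well while the platelet genes *Pf4* and *Ppbp* were at 0, *Itgb6* with 95.4% in 1 well, and *Itga6* with 50.8%. The leukocyte integrins *Itgal*, *Itgam*, *Itgax* and *Itgb2* were each below 1 CPM in both genotypes.

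The proteins that link beta subunits to actin were examined next. Of 26 genes for intracellular adhesion partners 21 passed 10 CPM, 7 were called higher (33.3%) and 5 lower (23.8%), with a median log2 ratio of 0.09, where 33.9% and 30.8% of all 7554 genes were called and their median was 0.66. The highest by the mean CPM of the 2 genotypes, which is not corrected for gene length, were the actin crosslinker *Flna* (2639 and 2799 CPM, WT first), *Tns1* (459.6 and 1053 CPM) and the scaffold *Ilk* (666 and 581 CPM), none of them called. The highest ratios were those of the adaptors *Pxn* (6.01), *Tln2* (5.65) and *Lims2* (4.84), whose WT levels were at most 2.19 CPM. The lowest were those of *Tns2* (-1.94), *Zyx* (-1.20) and *Lims1* (-0.90), with 25.6%, 88.6% and 53.1% of their WT counts in 1 well. *Ilk* was present in 13 of 15 WT and 55 of 65 Renin-null wells with *Itgb1* (86.7% and 84.6%), the talin gene *Tln1* in 10 and 45 (66.7% and 69.2%) and the kindlin gene *Fermt2* in 8 and 43 (53.3% and 66.2%). *Tln1* and *Fermt2*, both needed to activate an integrin, occurred together in 6 of 15 and 34 of 65 of these wells (40.0%, 16.3% to 67.7%, and 52.3%, 39.5% to 64.9%). In wells without *Itgb1* the shares, WT first, were 36.1% and 41.9% for *Ilk*, 33.3% and 61.3% for *Tln1*, 19.4% and 41.9% for *Fermt2*, and 16.7% and 22.6% for *Tln1* with *Fermt2*.

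Of 13 genes for inhibitors and traffic of integrins all passed 10 CPM, 3 were called higher (23.1%) and 4 lower (30.8%), and their median was 0.56, beside the same 33.9% and 30.8% of all genes. The highest by the mean CPM of the 2 genotypes were the tetraspanins *Cd81* (865 and 559.6 CPM) and *Cd9* (198 and 530.3 CPM) and the integrin-associated protein gene *Cd47* (136 and 189 CPM). Highest in ratio were the endocytic adaptor *Dab2* (12.26, with 2 counts in WT and an interval of 10.40 to 15.30), the integrin inhibitor *Sharpin* (8.96) and *Rab21* (2.71). Lowest were *Kank1* (-2.64), *Kank2* (-1.15) and *Itgb1bp1*, which encodes the inhibitor ICAP-1 (-0.63), with 86.6%, 93.1% and 95.9% of their WT counts in 1 well.

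The matrix proteins that these receptors bind were examined last. Of 27 ligand genes 22 passed 10 CPM, 9 were called higher (40.9%) and 6 lower (27.3%), with a median log2 ratio of 1.27, again beside 33.9%, 30.8% and 0.66 over all genes. The highest by the mean CPM of the 2 genotypes were *Ccn1* (824 and 721 CPM), *Spp1* (0.0253 and 1348 CPM) and *Lamb2* (514 and 286 CPM). Highest in ratio were *Spp1*, which encodes osteopontin (15.70, with 5 counts in WT and 66.7% of the Renin-null counts in 1 well), *Col3a1* (7.94) and *Emilin1* (5.59). Lowest were *Lama2* (-6.52), *Fbn1* (-1.72) and *Thbs1* (-1.25), with 92.9%, 47.5% and 94.8% of their WT counts in 1 well. The fibronectin gene *Fn1*, a ligand of the receptors that *Itgav*, *Itga5* and *Itga8* form, was named after its values were seen. It was at 31.0 CPM over WT and 687 CPM over Renin-null wells (4.47, 4.43 to 4.51) and was present in 3 of 15 WT wells with *Itgb1* (20.0%, 4.33% to 48.1%) and 47 of 65 such Renin-null wells (72.3%, 59.8% to 82.7%). Without *Itgb1* these shares were 1 of 36 and 11 of 31. *Spp1* was present in none of the 15 WT wells and 18 of the 65 Renin-null wells with *Itgb1* (27.7%), and in 8 of 31 Renin-null wells without it (25.8%).

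The genes whose levels were most like those of *Itgb1* from well to well were sought among wells within the quality limits, over genes present in at least 50% of them. Over the 15 WT wells, Spearman's rho was highest for *Cox6a1* (0.81), *P2rx1* (0.79), *Gmps* (0.76), *Serf2* (0.75) and *Rab34* (0.72) among 969 genes, whose median was 0.08. Over the 57 Renin-null wells it was highest for *Lgals1* (0.50), *Arpp19* (0.49), *Tpm1* (0.43), *Igfbp7* (0.43) and *Sfr1* (0.43) among 794 genes, whose median was also 0.08. None of the 5 was shared. *Itgav*, the only other subunit that met the 50% in Renin-null wells, ranked 386 with a rho of 0.09, while *Itgb1* and counts per well had a rho of 0.01 in WT and -0.04 in Renin-null wells. The wells of a genotype share their libraries, and these values are a description.

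**Figure D5:**
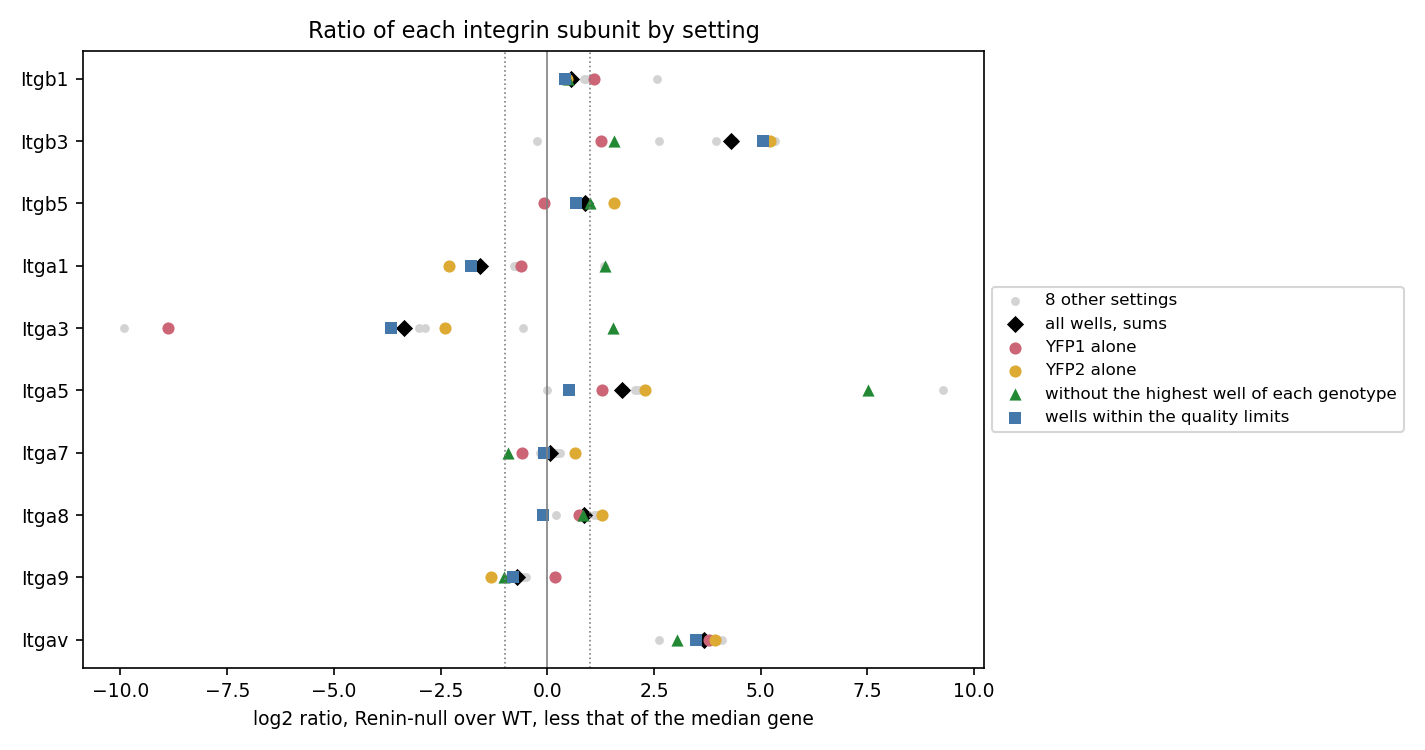
Log2 ratio of each integrin subunit, Renin-null over WT, less that of the median gene, under the sum over all wells (diamond), each Renin-null library alone (circles), without the highest well of each genotype (triangles), within the quality limits (squares) and 8 other settings (grey). Dotted lines mark a difference of 1. *Itgav* lies between 2.61 and 4.10 under all alternatives, whereas *Itga1* and *Itga3* cross to the right of 0 without the highest wells (1.36 and 1.54), and the 2 values of *Itga5* farthest to the right rest on a WT count of 0 set to 3.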

How the data were processed

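Single cells had been captured on the Fluidigm C1, amplified with SMART-Seq v4 and sequenced as Nextera XT libraries. By the submitters' processing notes the tools were FastQC 0.11.5, Trimmomatic 0.39 and Salmon 0.11.2 on GRCm38.p6, and the authors summed transcripts to genes with tximport (lengthScaledTPM). The deposited values are expected counts (estimated counts) per gene, unnormalized, for 35438 genes in 51 WT and 96 Renin-null wells. They were rounded to whole numbers and summed over a genotype, which lets deep wells weigh most. A group at 0 was set to 3 counts, with no ratio where both held 3 or fewer. Ratios have exact conditional intervals and shares Clopper-Pearson intervals at 95%. Without molecular identifiers, PCR copies cannot be told from separate molecules. The intervals of levels and ratios treat every count as separate, so they are too narrow even for the counting error of molecules. The files do not state strand, and wells had been inspected by microscope, so no doublet caller was run.

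The subunits, gene lists and markers were chosen with earlier results of these data known. All subunits were named, with the 3 genes of highest CPM and the 3 of highest and lowest ratio from each list and 5 genes most like *Itgb1*. *Fn1* and the leukocyte integrins were added after their values were seen. Gene models were GENCODE M21 (GRCm38). Alternatives were another way of combining wells or scaling, SCTransform, either Renin-null library, other limits and other sets of wells. The calculation of the ratio was checked on simulated sums of counts drawn without spread between wells. That check cannot cover genes whose counts lie mostly in 1 well. TMM factors were taken from edgeR 4.0.16, and SCTransform from sctransform 0.4.2 in Seurat 5.3.0 (R 4.3.3). Tables and figures were made with pandas 2.3.3, numpy 2.4.6, scipy 1.17.1 and matplotlib 3.10.9 (Python 3.11.15). The 10x experiment of the study was not analysed here. For 1 of the marker genes, which is part of the sums, no separate value is reported here.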

Additional observations from a re-analysis of the deposited data

How the results depend on the processing

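No paired analysis was possible because the labels give no number that pairs wells across genotypes, and each genotype was 1 sample. The log2 ratio of *Itgb1* (1.21) kept its direction under all 12 alternatives. It was 2.21 by the mean over wells of CPM and by SCTransform, 3.02 by the difference of mean log2(CPM + 1), 0.51 with TMM factors, 1.05 without mitochondrial counts, 1.41 with YFP1 and 1.02 with YFP2 alone, 2.02 without the highest wells, 0.95 within the quality limits, 1.17 with near-identical wells counted once and 1.18 in wells of at least 1000000 counts. Relative to the median gene it stayed between 0.39 and 2.57. TMM factors and leaving out mitochondrial counts move all genes alike, so no value relative to the median gene could change under them. Subunits called higher (2) numbered 4 with YFP2 alone (33.5% of all genes) and without the highest wells (37.0%), 3 by the mean of CPM (33.2%), by SCTransform (33.8%), with YFP1 alone (34.1%) and without wells holding markers of other cells (37.2%), 1 within the quality limits (34.3%) and 5 without centring (43.9%). Subunits called lower (2) numbered 3 with YFP2 alone (32.0%) and against the median over all genes with a ratio (34.6%), 1 by the mean of CPM (30.5% of all genes), by SCTransform (30.6%), with YFP1 alone (34.0%), without the highest wells (33.7%), without centring (20.8%) and at 3-fold (21.8%), and 0 by the difference of mean log2(CPM + 1), where 8.95% of all genes were called lower and 9.86% higher, with 3 subunits higher. That last setting turned *Itga1* to 1.32 above and *Itga5* to 0.01 and *Itgb3* to 0.24 below the median gene (-0.01 and -0.24), and leaving out the highest wells turned *Itga1* to 1.36 and *Itga3* to 1.54. Of the uncalled subunits, *Itgb5* and *Itga8* lay below the median gene under 1 of the 12 alternatives and *Itga7* under 4, and *Itga9* lay above it under 1.

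The *Itgb1* shares of WT and Renin-null wells (29.4% and 67.7%) were 74.5% and 91.7% at 1 count, 15.7% and 45.8% at 100 CPM, and 60% and 77.2% within the quality limits. Alpha subunits in over 50% of WT wells with *Itgb1* (0) numbered 4 at 1 count, 2 within the quality limits and in wells of at least 1000000 counts, and 1 at 10 counts, at 100 CPM and in thinned wells. In Renin-null wells (1) they numbered 5 at 1 count, 2 at 10 counts and 0 at 100 CPM. The median number of alpha subunits in WT wells with *Itgb1* (1) was 3 at 1 count, 2 at 10 counts and 1.5 at 100 CPM. It was 2 within the quality limits and in wells of at least 1000000 counts, and 0 without wells holding markers of other cells. In Renin-null wells (2) the median was 5 at 1 count, 3 at 10 counts and 1 at 100 CPM. Why these values moved was not tested. With 15 WT wells within the quality limits, a share carries an interval as wide as 32.3% to 83.7%.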
